A study of Mus musculus with 8 samples.

Results

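Chromatin accessibility was examined at 39 genes for transcription factors of somatic lineages, from the Sox (7 genes), Pax (7), Gata (5), Dlx (5), Nkx2 (3), basic helix-loop-helix (bHLH, 6) and Tbx (2) families together with Six2, Six3, Lhx2 and Pdx1. A peak was taken as belonging to one of them when the deposited peak table named that gene for it, which the table does for peaks inside a gene or within 10 kb of it. The 39 genes were all found among 21490 genes with a peak in at least 1 library. Their peaks formed 205 of 87144 regions after overlapping peaks of all libraries were merged. Of these 205 regions, 2 belonged to a pair of members each, 1 between Dlx1 and Dlx2 and 1 between Dlx5 and Dlx6.

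These factors bind DNA to set up embryonic tissues such as the neural tube, muscle, heart, kidney, pancreas and blood, and germ cells usually keep them silent. Many of their promoters lie in CpG islands, stretches rich in the CG dinucleotide. In germ cells such promoters are often described as poised, carrying activating and repressive histone marks side by side. Accessibility measured by ATAC-seq, in which a transposase inserts into open DNA, shows neither the histone marks nor the transcripts.

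The cells came from testes of PIWIL2-eGFP mice, in which the Piwil2 promoter drives the reporter, and were sorted as eGFP-positive, so any cell with the reporter could enter. All mice were given WIN 18,446, an inhibitor of retinoic acid (RA) synthesis, for 7 days, and were then collected without an injection (0 h) or given RA in DMSO at 9 dpp and collected 18, 48 or 120 h later. The study assigns these timepoints to undifferentiated, A1/A2, A3 and B spermatogonia. Each timepoint had 2 libraries, each from the testes of 1 mouse (8 libraries in all), on a background that the labels give as C57BL/6 x 129s4/SvJae and the methods as C57BL/6 x SJL. Age and time after RA moved together in this design. Libraries had between 24643 and 72215 peaks, with both 0 h libraries above all later ones. The lowest summit value of a called peak in a library, the tag coverage at the top of the peak, was 24 or 25. A region without a peak was not called in that library, and its coverage is not known. It was therefore not shown to be closed. In such bulk samples, fewer cells with an open region and less opening in each cell cannot be told apart. Read numbers behind a region were not analysed here, and no counting interval could be given. Below, values of the 8 libraries follow the order of the timepoints, with replicate 1 before replicate 2.

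The germ cell label was checked against marker genes, as accessibility and not as expression. Of 14 germ cell markers, 13 had a peak at all 4 timepoints and 13 had a peak at their start at 0 h. All 4 timepoints were also covered by 5 of 9 Sertoli, 3 of 5 peritubular, 3 of 5 endothelial, 1 of 5 macrophage and 0 of 7 Leydig cell markers. Together these were 12 of 31 somatic markers (38.7%), below the share of all genes. The start was accessible at 0 h in 16 of these 31 somatic markers and at all 4 timepoints in 4. By cell type the start at 0 h was accessible in 7 of 9 Sertoli, 5 of 5 peritubular, 2 of 5 endothelial, 1 of 5 macrophage and 1 of 7 Leydig cell markers. No library had a start peak at 14 of the 31, which were 2 Sertoli, 0 peritubular, 3 endothelial, 3 macrophage and 6 Leydig cell markers. The peaks assigned to the 31 somatic markers numbered 88 to 89 per 0 h library and then, by timepoint, 27 to 33, 29 to 35 and 22 to 41. The 39 factor genes had 165 in each 0 h library and then 45 to 60, 46 to 64 and 58 to 99, a peak shared by a pair of genes counting for each. Whether somatic cells contributed to the factor gene peaks was not tested.

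The sequence before the gene start is shown for 3 genes that kept a start peak in every library and for 3 that had one at 0 h only or in no library, so that their CG content can be compared. The sequences are from RefSeq on GRCm38.p6 (mm10), run 5′ to 3′ towards the gene, and have each CG dinucleotide in capitals. Dlx2 (chr2:71546755-71547004, minus strand) patterns the forebrain and jaw, Tbx20 (chr9:24774304-24774553, minus strand) the heart, and Sox11 (chr12:27342719-27342968, minus strand) is a factor of neurons. Their starts were accessible in all 8 libraries, over 24, 22 and 17 CG in 250 bases.
Dlx2: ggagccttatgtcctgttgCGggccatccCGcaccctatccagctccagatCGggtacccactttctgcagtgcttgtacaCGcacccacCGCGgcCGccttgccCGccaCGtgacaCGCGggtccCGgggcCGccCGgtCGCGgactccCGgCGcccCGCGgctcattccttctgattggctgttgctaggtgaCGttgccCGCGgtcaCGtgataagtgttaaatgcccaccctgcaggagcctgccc
Tbx20: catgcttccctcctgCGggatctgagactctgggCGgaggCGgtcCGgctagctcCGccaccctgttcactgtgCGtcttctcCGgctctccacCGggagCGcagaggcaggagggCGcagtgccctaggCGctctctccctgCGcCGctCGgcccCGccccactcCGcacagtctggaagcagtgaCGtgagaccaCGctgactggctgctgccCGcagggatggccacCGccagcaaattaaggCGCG
Sox11: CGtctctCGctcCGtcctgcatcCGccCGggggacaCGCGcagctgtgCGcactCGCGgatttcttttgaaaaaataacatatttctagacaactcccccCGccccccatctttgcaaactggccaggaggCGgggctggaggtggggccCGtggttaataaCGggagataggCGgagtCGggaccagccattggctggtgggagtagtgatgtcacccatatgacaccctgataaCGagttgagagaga
Six2 (chr17:85688275-85688493, minus strand), a factor of nephron progenitors, and Olig2 (chr16:91225300-91225456, plus strand), a factor of oligodendrocytes and motor neurons, had a start peak in both 0 h libraries and in no later library. Bases covered by an annotated exon were left out, which leaves 219 bases with 23 CG for Six2 and 157 bases with 14 CG for Olig2. Gata1 (chrX:7967911-7968160, minus strand), the master factor of red blood cells, had no start peak in any library, and its 250 bases, taken at a RefSeq start 95 bp upstream of the one in the peak table, hold 2 CG. This is the fewest among the factor gene windows. The windows found for other genes without a start peak hold between 8 (Neurog2) and 19 (Gata3).
Six2: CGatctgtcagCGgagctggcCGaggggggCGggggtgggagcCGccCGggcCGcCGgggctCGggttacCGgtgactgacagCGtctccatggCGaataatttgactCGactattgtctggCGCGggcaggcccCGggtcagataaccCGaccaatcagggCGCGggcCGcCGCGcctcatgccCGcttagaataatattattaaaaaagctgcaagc
Olig2: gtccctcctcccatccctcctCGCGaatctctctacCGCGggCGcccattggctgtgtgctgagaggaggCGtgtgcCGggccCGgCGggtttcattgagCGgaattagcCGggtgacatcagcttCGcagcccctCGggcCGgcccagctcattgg
Gata1: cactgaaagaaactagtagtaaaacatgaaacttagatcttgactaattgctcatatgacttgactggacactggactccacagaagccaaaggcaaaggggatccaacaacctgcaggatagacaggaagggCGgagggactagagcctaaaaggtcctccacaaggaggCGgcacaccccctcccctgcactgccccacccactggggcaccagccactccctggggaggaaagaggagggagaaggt

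RefSeq promoters were matched for 29 of the 39 genes, with 34 windows between them. Dlx3, Dlx5, Dlx6, Gata6, Myod1, Pax3, Sox10, Sox17, Sox18 and Tbx5 were not matched. The median number of CG in the 250 bases before the start was 19 for the factor genes and 6 for all 32851 promoters. It was 22 both for genes with a start peak in all 8 libraries (9 windows) and for those with one in 1 to 7 libraries (19 windows), and 8.5 for genes without a start peak (6 windows). A GC box, spelled GGGCGG on either strand and containing a CG itself, was present in 67.6% of the factor gene windows and in 32.7% of all promoters. By the same grouping it was in 44.4%, 73.7% and 83.3% of windows. The groups are small and follow the gene, also for windows far from the start in the peak table, such as 1 of Lhx2 at -12027 bp. Genes counted without a start peak include Gata3, Nkx2-1 and Neurog2, whose nearest summits were 1016, 1036 and 1063 bp from the start. No trend can be read from these groups, for the GC box or for the number of CG.

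At 0 h all 39 factor genes were accessible (99.6% of the 20673 genes accessible at 1 timepoint or more), meaning that both libraries of the timepoint had a peak assigned to the gene. At the later timepoints 26, 25 and 34 of them were (66.7%, 64.1% and 87.2%, against 80.6%, 79.8% and 79.9%). Accessibility at all 4 timepoints was seen for 20 of the 39 genes (51.3%), against 72.8% of those genes. At 0 h only there were 2 genes (5.13%, against 12.9%), Sox10 and Gata1. At 0 and 120 h only there were 7 genes (17.9%, against 2.69%), Six2, Dlx5, Nkx2-2, Neurog1, Olig2, Myod1 and Tbx5. The list was thus less often accessible throughout than genes in general and more often accessible at the first and last timepoints alone. No test was made of a list that was chosen with these data known.

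**Figure D1:**
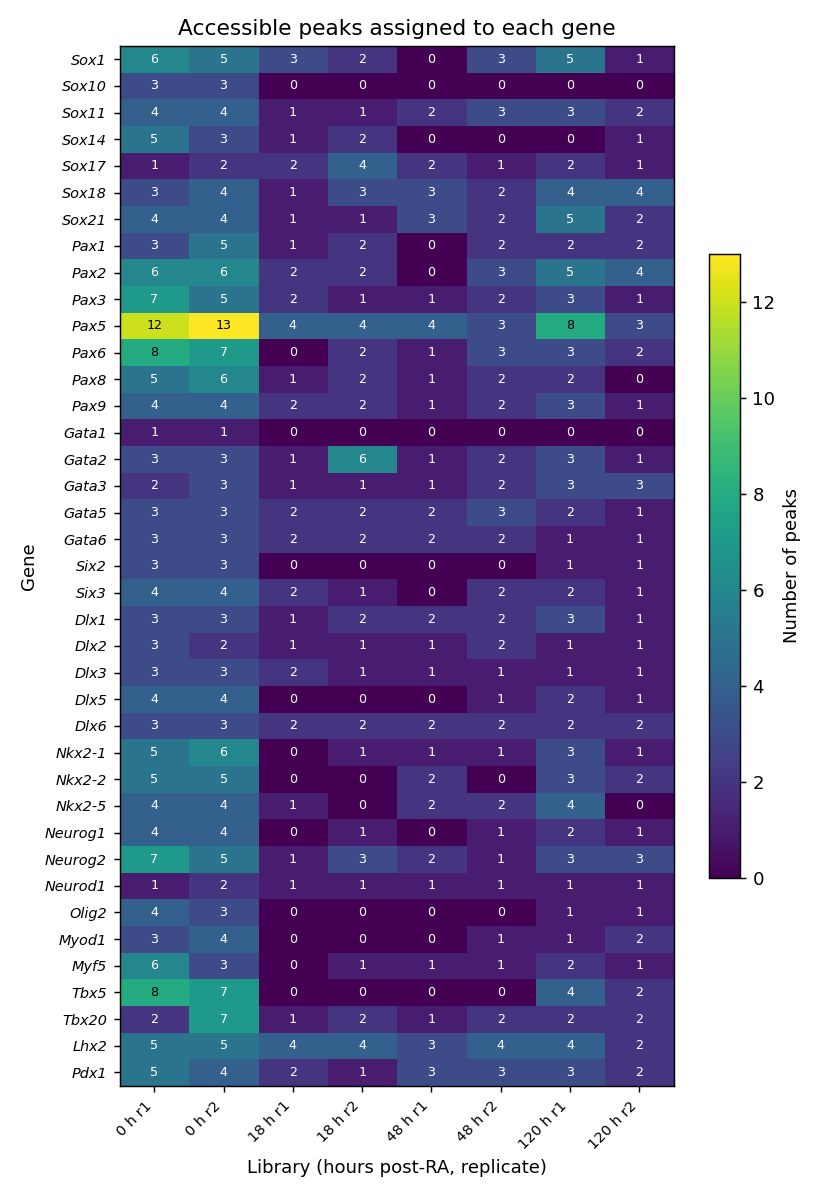
Number of peaks assigned to each of the 39 genes (rows) in each of the 8 libraries (columns, hours post-RA and replicate), with the count written in each cell and shown by color. Rows such as Tbx5, Six2 and Olig2 have peaks at 0 h and 120 h and none at 18 h or 48 h.

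**Figure D2:**
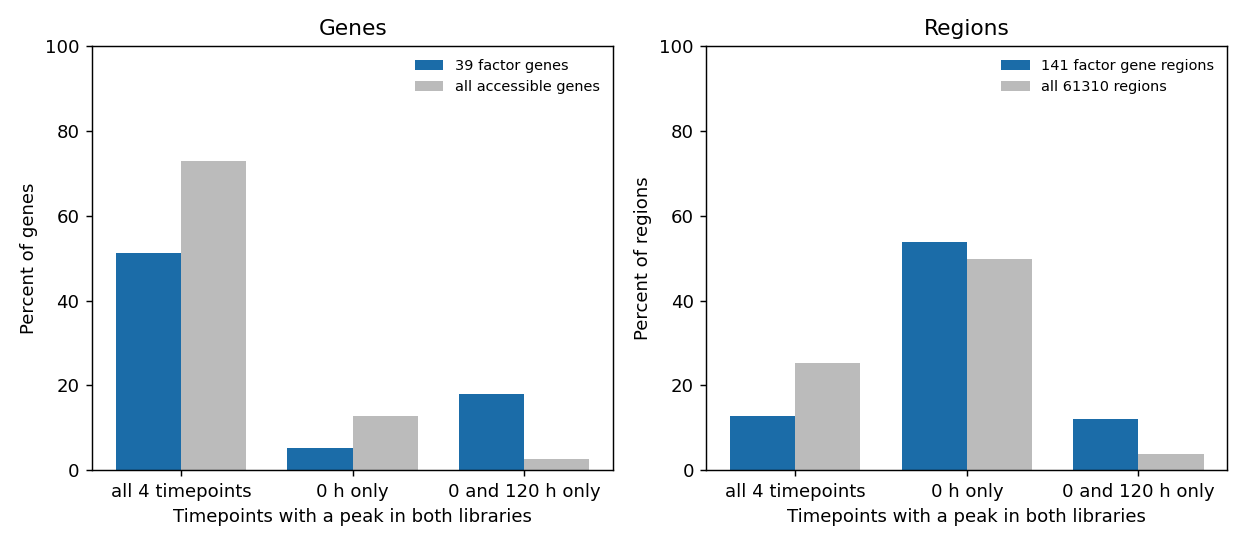
Percent of genes (left) and of merged regions (right) that had a peak in both libraries at all 4 timepoints, at 0 h only, and at 0 and 120 h only. Blue bars are the factor genes or their 141 regions and grey bars are all accessible genes or all 61310 regions, and the blue bars are the higher ones for 0 and 120 h only on both sides.

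The counts depended on how many peaks a library had. When each library was reduced to its 24643 highest peaks, the numbers of accessible factor genes were 22, 21, 21 and 32 in order of time. The genes at 0 and 120 h only were then 1 instead of 7. They were 4 without 48 h replicate 1, where a peak in 48 h replicate 2 was enough for 48 h. With a peak in either library at every timepoint they were 3. Of all 17184 genes accessible with the highest peaks, 90.7%, 89.7%, 90.1% and 89.7% were accessible in the same order. Among the highest peaks, then, the gap between 0 h and 18 or 48 h was 1 factor gene, and 120 h had more than any other timepoint.

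As a share of all peaks in a library, the factor gene peaks made up 0.226% and 0.237%, 0.156% and 0.174%, 0.177% and 0.188%, and 0.250% and 0.235%. The shares at 0 h and 120 h were above those at 18 h and 48 h, without overlap. Among the 24643 highest peaks of each library, factor genes held 38 and 42, 35 and 47, 45 and 43, and 63 and 58. Here both 120 h libraries stood above the other 6, while the 0 h libraries lay within the range of 18 h and 48 h. The measure was added after the data were seen, and 2 libraries against 6 were not tested.

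**Figure D3:**
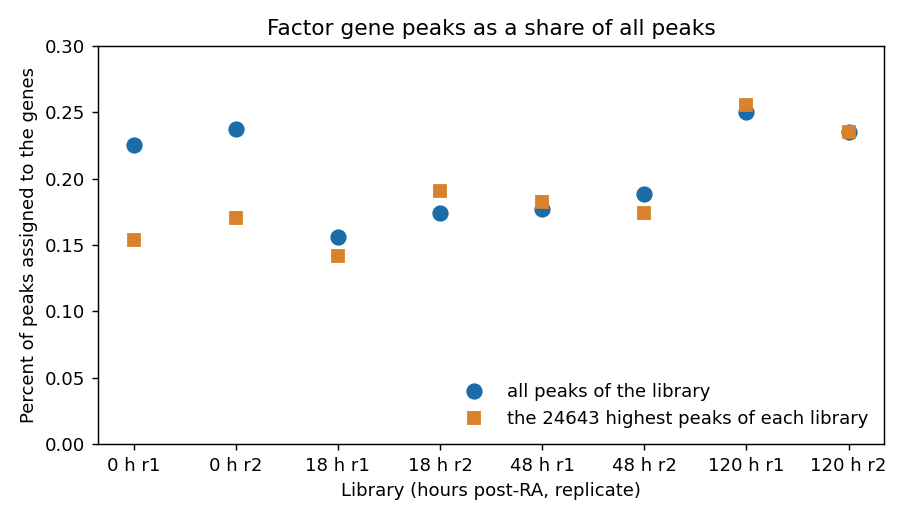
Percent of peaks assigned to the factor genes in each library (x axis, hours post-RA and replicate), for all peaks (circles) and for the 24643 highest peaks of each library (squares). The circles dip at 18 h and 48 h, whereas the squares are highest at 120 h, at 0.256% and 0.235%.

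Among the Sox genes, Sox11, Sox17, Sox18 of lymphatic vessels and Sox21 were accessible at all 4 timepoints. Sox10, which specifies neural crest, had 3 peaks in each 0 h library and 0 in every later one. Sox14, a factor of interneurons, was accessible at 0 and 18 h, and Sox1, a marker of neural progenitors, at 0, 18 and 120 h. Sox17, a factor of endoderm and endothelium, was the exception among the 39 genes, with 1 and 2 peaks in the 0 h libraries, then 2 and 4, 2 and 1, and 2 and 1. These peaks formed 2 regions, and the one at -1027 bp from the start had a peak in 0 h replicate 2 and 18 h replicate 2 only. In 18 h, 48 h and 120 h replicate 1 the 2 peaks therefore lay in the same region. Sox17 was thus an exception in peaks and not in regions. The other 38 genes had fewer peaks on average after 0 h. In 27 of the 39 (69.2%, against 38.4% of accessible genes) both 0 h libraries had more peaks than any later library. The factor genes started from more peaks, 4.23 per gene in each 0 h library, and these shares were not matched on that number.

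Of the Pax genes, Pax3 of neural crest and muscle progenitors, Pax5 of B cells and Pax9 of the vertebral column and teeth were accessible throughout. Pax1, also of the vertebral column, and Pax2 of the kidney were accessible at 0, 18 and 120 h, Pax6 at 0, 48 and 120 h and Pax8 of the thyroid and kidney at 0, 18 and 48 h. Pax5 had the most peaks of the list, 12 and 13, 4 and 4, 4 and 3, and 8 and 3, none of them within 1000 bp of its start. Pax6, the master factor of the eye, had 8 and 7 peaks before RA, then 0 and 2, 1 and 3, and 3 and 2. Of the Gata genes, Gata2 of blood stem cells, Gata3, Gata5 and Gata6 of heart and endoderm were accessible throughout, while Gata1 had a single peak in each 0 h library and none later. That peak lay at -4793 bp from the Gata1 start (chrX:7972545-7972816), with values of 37 and 36, close to the lowest summit values of called peaks.

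The Dlx genes, which act in pairs in the forebrain and jaw, were accessible throughout except Dlx5. Dlx5 had 4 peaks in each 0 h library, then 0 and 0, 0 and 1, and 2 and 1, whereas its neighbor Dlx6 had 3 in each 0 h library and 2 in each of the later 6. None of Six2, Six3 and the Nkx2 genes was accessible at all 4 timepoints. Six3, a factor of forebrain and eye, was accessible at 0, 18 and 120 h, Nkx2-1 of lung and thyroid at 0, 48 and 120 h, and Nkx2-5 of the heart at 0 and 48 h. Of the bHLH genes, only Neurog2 and Neurod1, both of neurons, were accessible throughout, and Myf5 of muscle was accessible at 0, 48 and 120 h. Lhx2 of forebrain and eye, Pdx1 of the pancreas and Tbx20 were accessible at every timepoint.

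Tbx5, a factor of the heart and forelimb, showed the pattern of 0 and 120 h only over the most peaks. It had 8 and 7 peaks before RA, none in any of the 18 h and 48 h libraries, and 4 and 2 at the end. Within 1000 bp of its start, in the UTR (chr5:119835070-119835558), the values were 83 and 79 at 0 h and 70 and 51 at 120 h. In a coding exon (chr5:119882955-119883496) they were 55 and 55 at 0 h and 33 and 35 at 120 h.

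In Six2, Olig2 and Myod1 the peak at the start was present at 0 h, and another peak was the one called again at 120 h. The Six2 start region (chr17:85688162-85688666) had 130 and 186 in the 0 h libraries and was not called in any later one. A coding exon of Six2 (chr17:85685128-85685534) had 84 and 89 before RA and 84 and 53 at 120 h. In 1 of the 120 h libraries the exon was thus as high as before RA and in the other it was lower, while the start peak, the higher one at 0 h, was called in neither. The Olig2 start region (chr16:91225155-91225506) had 77 and 74 at 0 h and no peak later, and a coding exon of Olig2 (chr16:91226778-91227322) had 70 and 86 before RA and 72 and 48 at 120 h. For Myod1, the factor that commits cells to muscle, the region at -122 bp from the start (chr7:46376164-46376550) had 78 and 72 at 0 h and no peak later, and a coding exon close to it (chr7:46376818-46377304) had 91 and 79 at 0 h and 55 in 1 library of 120 h. A region 2694 bp after the start (chr7:46379016-46379335) had 74 and 125 at 0 h and 91 and 78 at 120 h. Myod1 also had a region 11046 bp after the start with a peak in 48 h replicate 2 only (47). In Neurog1 and Dlx5, as in Tbx5, a region called at 0 and 120 h was within 1000 bp of the start. The Neurog1 start region (chr13:56251418-56252832) had 99 and 92 at 0 h, a peak in 1 library of 18 h (50) and of 48 h (61), and 72 and 54 at 120 h. A coding exon at the Dlx5 start (chr6:6881472-6882107) had 79 and 78 before RA, no peak at 18 h or 48 h, and 45 and 37 at 120 h. For Nkx2-2, a factor of the ventral neural tube and pancreas, a coding exon (chr2:147184027-147184389) had 74 and 46 before RA and 61 and 47 at 120 h.

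Of the 205 factor gene regions, 141 were called in both libraries of at least 1 timepoint, 53 had a peak in 1 library only and 18 had a peak in all 8. In order of time, 135, 34, 34 and 49 were called. Of those at 0 h, 23.7%, 24.4% and 33.3% were also called at the later timepoints, against 39.9%, 36.8% and 34.3% of all regions called at 0 h. The factor gene regions were therefore below all regions at 18 and 48 h and near them at 120 h. Leaving out a library moved these numbers, since a peak in the remaining library alone then counted for that timepoint. Its count could therefore only stay or rise, for the factor gene regions as for all regions. Without 18 h replicate 1, 57 regions were called at 18 h (35.6% of those at 0 h, against 52.6%), and without 48 h replicate 1, 63 were called at 48 h (37.8%, against 49.96%). Without 120 h replicate 2, 94 were called at 120 h (61.5%, against 53.7%), so that the share at 120 h was then above that of all regions. Called at all 4 timepoints were 18 (12.8%, against 25.3% of all called regions), at 0 h only 76 (53.9%, against 49.8%, and 49 regions without 120 h replicate 2), at 120 h only 3 (2.13%, against 2.49%) and at 0 and 120 h only 17 (12.1%, against 3.77%). Of those 17, 8 had no peak in any 18 h or 48 h library (47.1%, against 30.1%), and 10 lay in a CpG island (58.8%, against 32.2%). Their number was 44 without 120 h replicate 2 (29.7%, against 12.5%) and 30 when a peak in either library was enough (14.6%, against 5.63%). With the 24643 highest peaks of each library it was 1 (1.75%, against 1.87%). The share was then not above that of all regions.

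Peaks at 0 h differed in height, so the regions were also compared within classes of the mean summit value at 0 h. Of 28 factor gene regions between 100 and 200, 32.1%, 28.6% and 42.9% were called at the later timepoints, against 59.98%, 51.9% and 44.7% of all 15414 regions of that height. Of 59 between 60 and 100, it was 11.9%, 13.6% and 28.8%, against 16.0%, 14.1% and 15.4% of 16589. Of 16 at 200 or more it was 93.8%, 93.8% and 81.3%, against 97.2%, 94.9% and 88.2%. Of 32 below 60, 1, 2 and 3 were called (3.13%, 6.25% and 9.38%, against 2.83%, 2.60% and 4.08%). Middle-height factor gene regions were thus less often called at 18 and 48 h than others of that height, and those between 60 and 100 were more often called at 120 h. These classes were added after the data were seen.

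Of the 38 regions called at 0 h with no peak in any later library (28.1% of those at 0 h, against 31.6%), the 6 highest by their lower 0 h value belonged to Six2, Dlx2, Sox11, Sox21, Olig2 and Nkx2-1. Those of Six2 and Olig2 are the start regions given above. The other 4 were not at starts. A region at -1278 bp from the Dlx2 start (chr2:71547881-71548177) had 114 and 140, a UTR of Sox11 (chr12:27339340-27339682) had 110 and 108, and a region at -3482 bp from the start of Sox21 (chr14:118240378-118240810), a factor of neural progenitors, had 80 and 131. The Nkx2-1 region (chr12:56525404-56525689, 83 and 72) lay in an intron of the neighboring Sfta3-ps. Its lower value of 72 was shared by another Nkx2-1 region (chr12:56535749-56536042, 73 and 72) and by the Myod1 start region given above, so the last place was a tie. A single factor gene region had a peak in both 120 h libraries and in neither 0 h library, intergenic DNA 22024 bp from the start of Gata3 (chr2:9856384-9856746), a factor of T cells, with 46 and 36 at 120 h.

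Of the 205 regions, 92 (44.9%) overlapped a CpG island, against 18.1% of all regions. Within 1000 bp of a factor gene start lay 42 (20.5%), near the 19.0% of all regions that lay so close to any gene start. Of these 42, 35 had a CpG island (83.3%, against 70.6% of other gene start regions). A start peak in both libraries was present for 28 genes at 0 h and for 13, 12 and 14 afterwards (33.3%, 30.8% and 35.9% of the 39, against 53.8%, 54.7% and 55.8% of all accessible genes). It was present at all 4 timepoints in 9 of those 28 (32.1%, against 67.7% of all genes with a start peak at 0 h), namely Sox11, Sox21, Pax9, Dlx1, Dlx2, Dlx6, Tbx20, Lhx2 and Pdx1. Sox17, Pax5, Gata1, Gata3, Nkx2-1, Nkx2-5 and Neurog2 had no start peak in any library. The limit of 1000 bp was applied to the summit. The nearest summits of Gata3, Sox17, Nkx2-1 and Neurog2 lay just past it, at 1016, 1027, 1036 and 1063 bp. The Gata3 and Neurog2 regions had a peak in all 8 libraries, with 230 and 383, and 249 and 266, at 0 h. That of Sox17 had a peak in 2 libraries and that of Nkx2-1 in the 0 h libraries only. Starts were thus accessible for about the same share of these genes as of all genes at 0 h (71.8%, against 71.7%), and for a smaller share afterwards.

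The start regions in CpG islands were lower at 0 h than those of other genes, with median summit values of 98 and 134 for 28 factor gene regions and 196 and 247 for all 10892. All 4 timepoints were covered by 8 of the 28 (28.6%, against 73.0%). Below a 0 h value of 100 it was 1 of 12 (against 11.5%), from 100 to 200 it was 3 of 11 (against 62.4%) and at 200 or more 4 of 5 (against 98.2%). The lower height at 0 h moved with the smaller share kept, and in the middle class the share was also lower among regions of the same height. Away from starts, 9 of 100 regions at 0 h were called at all 4 timepoints (against 14.7% of all such regions).

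Peak height could be compared only where every library had a called peak, which left 18 factor gene regions. Heights were log2 summit values minus the library's median over all 15536 such regions, since the later libraries were lower as a whole. The median change over all regions without this centering was -1.23, -1.36 and -0.75 for the later timepoints against 0 h. With limma and Benjamini-Hochberg adjustment over all 15536 regions, 0 of the 18 were called at 18 h or 48 h against 0 h, where 0.225% and 1.51% of all regions were lower and 1.25% and 3.26% higher. At an unadjusted p below 0.05, 4 of the 18 were lower at 18 h and 2 at 48 h, and 0 were higher, where 4.99% and 8.11% of all regions were lower and 8.30% and 11.1% higher. The 0 calls at 48 h and the lack of higher regions depended on which regions were tested. When a peak was needed only in the 4 libraries compared, 4 of 32 were lower and 5 higher at 18 h at an unadjusted p below 0.05 (5.61% and 9.69% of all), and 2 of 33 were lower and 7 higher at 48 h (8.59% and 13.8% of all). After adjustment by limma, 0 of the 32 were called at 18 h, and 1 of the 33 was lower and 3 higher at 48 h (2.16% and 5.23% of all). Heights as deposited gave 18 of 18 lower at both timepoints, where 92.3% and 93.3% of all regions were lower. Between 48 h and 18 h, 0 of the 18 and 0 of all regions were called (at an unadjusted p below 0.05, 1 of the 18 was lower, as were 489 of all regions, and 428 were higher).

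The comparisons with 0 h share the 0 h libraries. At 120 h against 0 h, 5 of the 18 regions were lower (15.8% of all regions were) and 1 was higher (23.0% were). The median change of the 18 was -0.15 and that of all regions 0.14. The 5 lower ones were a coding exon of Lhx2, a region near Gata3, coding exons of Sox17 and Neurod1, and the start of Tbx20, and the higher one was the start of Lhx2. Without 0 h replicate 1 the lower ones were 3, and without 0 h replicate 2 or 120 h replicate 2 they were 2. The higher one was lost without 0 h replicate 2 or 120 h replicate 1. When regions needed a peak only in the 4 libraries of these timepoints, 5 of 45 were lower and 7 higher, against 2484 and 4140 of 20285, and the median change was 0.23, against 0.16 for all. With heights as deposited 10 of the 18 were lower (44.8% of all) and 0 higher (0.882% of all).

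**Figure D4:**
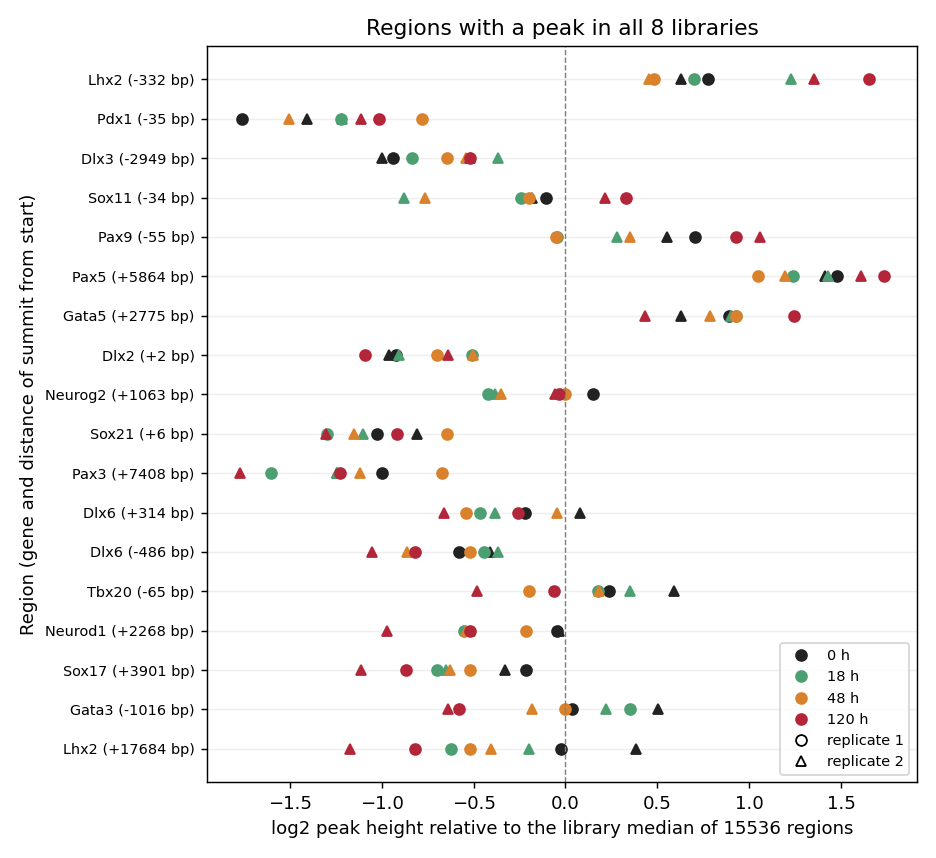
Log2 peak height relative to the library median (x axis) for the 18 factor gene regions with a peak in all 8 libraries (rows, gene and distance of the summit from the gene start), colored by timepoint with a circle for replicate 1 and a triangle for replicate 2. Rows are ordered by the mean difference between 120 h and 0 h. The start of Lhx2 is at the top and its coding exon at the bottom.

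In the region at -1016 bp from the Gata3 start (chr2:9879439-9879893) the summit values were 230 and 383, 116 and 135, 86 and 90, and 111 and 68. Relative to the library median it was lower at 120 h than at 0 h by a log2 change of -0.88 (SE 0.21, limma adjusted p = 0.0073, n = 2 against 2). The Sox17 coding exon (chr1:4491697-4493564) had 193 and 215, 56 and 74, 60 and 66, and 91 and 49, a change of -0.72 (SE 0.20, limma adjusted p = 0.0131). Sox17 had no fewer peaks later on average, but several of the later peaks lay within this same region, which was lower. The Neurod1 coding exon (chr2:79453914-79454661), which overlaps an intron of Gm26755, had 217 and 264, 62 and 81, 74 and 70, and 116 and 54, a change of -0.71 (SE 0.22, limma adjusted p = 0.0218). At the Tbx20 start (chr9:24774125-24774955), whose sequence is printed above, the values were 264 and 407, 103 and 148, 75 and 116, and 159 and 76 in the same order, a change of -0.69 (SE 0.23, limma adjusted p = 0.0318). Each of these 4 calls was lost in at least 1 fit with a library left out.

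The Lhx2 gene (chr2:38339281-38369733, plus strand) held the pair of regions that moved apart. The start region (chr2:38350698-38351472, CpG island, UTR) had 383 and 418, 148 and 272, 120 and 140, and 523 and 271. The coding exon region 17684 bp after the start (chr2:38368688-38369212) had 220 and 352, 59 and 101, 60 and 77, and 94 and 47. Relative to the library median the start was higher at 120 h than at 0 h by 0.80 (SE 0.22, limma adjusted p = 0.0139) and the exon lower by a log2 change of -1.18 (SE 0.23, limma adjusted p = 0.00258). The change of the start depended on the scaling, at -0.09 with heights as deposited, while that of the exon stayed past the threshold in all 16 alternative fits. The ratio of start to exon needs no scaling between libraries, and was 1.74 and 1.19, 2.51 and 2.69, 2.00 and 1.82, and 5.56 and 5.77. Both 120 h ratios were above those of the other 6 libraries. The pair was chosen after its values were seen, and the ratio was not tested.

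**Figure D5:**
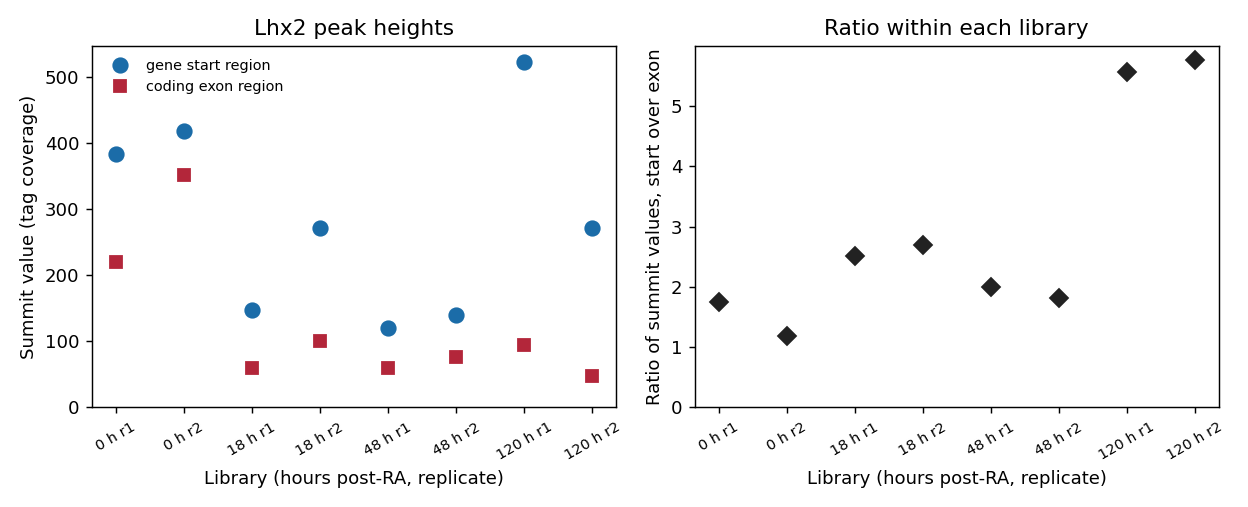
Summit values (tag coverage) of the Lhx2 start region and coding exon region in each library (left), and the ratio of start to exon within each library (right). The x axes give hours post-RA and replicate. The ratio lies between 1.19 and 2.69 up to 48 h and is 5.56 and 5.77 at 120 h.

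At 120 h against 48 h, 2 of the 18 regions were higher (9.47% of all regions were) and 0 lower (7.45%), the starts of Lhx2 (1.04, SE 0.22, limma adjusted p = 0.0188) and of Pax9 (0.85, SE 0.22, limma adjusted p = 0.0271). At the Pax9 start (chr12:56695361-56696050, UTR) the values were 365 and 396, 88 and 141, 83 and 130, and 316 and 221. Both 120 h values were above those at 18 h and 48 h and below those at 0 h. At the Sox11 start (chr12:27342542-27343149) they were 208 and 238, 77 and 63, 75 and 60, and 209 and 123, and the change of 0.75 from 48 h did not pass (SE 0.25, limma adjusted p = 0.0538). Neither call held without 48 h replicate 1, 48 h replicate 2 or 120 h replicate 2, and without 48 h replicate 2 no region of the 15536 was called (at an unadjusted p below 0.05, 1577 were lower and 2050 higher).

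The highest region of the list was in an intron of Pax5 that overlaps an exon of 5730488B01Rik (chr4:44704233-44704867, CpG island), with 624 and 720, 215 and 312, 178 and 234, and 553 and 323. Relative to the library median it changed by 0.23 from 0 h to 120 h (SE 0.20, limma adjusted p = 0.373), which did not pass. The highest shared Gata region, in an intron of Gata5 (chr2:180331657-180332249), a factor of heart and gut, had 416 and 417, 173 and 217, 164 and 176, and 394 and 143. Its 120 h libraries were far apart, and the change was 0.08 (SE 0.25, limma adjusted p = 0.821). The highest of the Dlx genes, a coding exon of Dlx6 (chr6:6863418-6864181), which overlaps Dlx6os1, had 192 and 285, 66 and 89, 59 and 99, and 139 and 67 (change -0.39, SE 0.23, limma adjusted p = 0.2). The highest of the bHLH genes, the coding exon of Neurog2 (chr3:127633382-127634768), had 249 and 266, 68 and 89, 86 and 80, and 162 and 102 (change -0.11, SE 0.20, limma adjusted p = 0.685). Six2, Six3 and the Nkx2 genes had no region with a peak in all 8 libraries.

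Other genes of the same families were counted as well. Of 50 related genes, 30 were accessible at all 4 timepoints, and 12 had peaks at 0 h but at neither 18 h nor 48 h. Of these 12, 6 were accessible again at 120 h, namely Nkx2-6, Nkx2-9, Nkx6-2, Olig3, Tbx1 and Tbx2. Among the 39 factor genes it was 7 of 9, and among all genes 17.3% of 3223. Genes for Polycomb proteins, which silence such factors in many cells, were accessible throughout in 28 of 29 cases (96.6%, against the same 72.8%). The exception was Pcgf1, accessible at 0 h only.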

How the data were processed

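ATAC-seq was measured in 8 libraries, 2 per timepoint. The authors aligned reads to mm10 with BWA 0.7.12, removed duplicates, reduced the libraries to equal tag numbers, built signal maps in bins of 32 nt and called peaks per library with MACS2 2.1.0 without a control. The deposited table gives the signal (tag coverage) at the summit and over each peak, with the distance to gene starts and the CpG island overlap. It holds no read counts.

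Peaks overlapping by at least 1 bp were merged, and a timepoint was counted where both libraries had a peak. Gene starts were taken within 1000 bp. Features and gene coordinates came from GENCODE vM21. Log2 heights, centred on library medians, were tested in limma 3.58.1 under R 4.3.3 (4 groups, no block, all 15536 regions with a peak in all 8 libraries). In data simulated for 18 h against 0 h over these regions, with 200 changed, 67.5% were called at a log2 change of 1 and 100% at 2. Counts and figures were made with Python 3.11.15, pandas 2.3.3 and matplotlib 3.10.9.

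The genes, gene lists and rules were chosen with earlier results of these data known. All 39 genes are named. In full, the rule takes regions past 0.05, the highest shared region of each family, and up to 6 regions at 0 h without a later peak or at 120 h without a 0 h peak. The regions of genes at 0 and 120 h only, that class itself, the second Myod1 start region and the Lhx2 pair were added after their values were seen, as were the printed promoters, taken among windows with at least 100 bases outside exons. Lists were related family genes, Polycomb genes and markers of germ, Sertoli, Leydig, peritubular, endothelial cells and macrophages. Alternatives were other peak sets and limits, each library left out, and for heights other scalings, signals and fits. Binned signal tracks and track lists were not used here.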

Additional observations from a re-analysis of the deposited data

How the results depend on the processing

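Over all alternatives, 435 values kept their direction and their side of the threshold or stayed near the value reported, 77 moved, 23 lost their call and 2 called changes turned sign. Some of the 435 could not have changed. Leaving out a library leaves the counts of the other timepoints, and the median changes between them, as they were. Among 80 median changes of the factor gene regions, which carry no call, 11 changed sign, with at least 1 in each of the 5 comparisons. With a peak needed only in the libraries compared, the medians against 0 h were 0.05, 0.13 and 0.23 instead of -0.22, -0.24 and -0.15. Between 48 h and 120 h the median was -0.19 and turned to 0.31 with heights as deposited, 0.03 after quantile normalization and 0.01 without 120 h replicate 2, and between 18 h and 48 h it was 0.05 and turned to -0.08 with heights as deposited and -0.02 without 48 h replicate 2. The cause of these shifts was not tested. The deposited peaks carry no read numbers, so an open region that was not called in a library cannot be told apart from a closed one.

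With a peak in either library, genes at 0 and 120 h only were 3, regions called after 0 h were 67, 72 and 102, regions at all 4 timepoints 43 and regions at 0 and 120 h only 30. With an equal number of highest peaks per library, genes at 0 h were 22, genes at 0 h only 1, genes at 0 and 120 h only 1, regions at 0 h 31, regions at 0 h only 6 and regions at 0 and 120 h only 1. With a summit value of at least 50, genes at 0 h only were 10, genes at 18 h 17, and regions at 18 h and 48 h 22 and 20. With start peaks alone, genes at all 4 timepoints were 9, at 0 h only 10, at 0 and 120 h only 4, and genes after 0 h 13, 12 and 14. A limit of 3000 bp put 41.0% of the factor gene regions at a start instead of 20.5%.

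For heights as deposited, with and without the replicate block, 18, 18 and 10 regions were lower at the later timepoints than before RA, 0 were higher at 120 h, and 4 were higher between 48 h and 120 h. The change of the Lhx2 start at 120 h was then -0.088 (limma adjusted p = 0.863, and 0.874 with the block), and over all 16 alternatives its adjusted p ranged from 0.00278 to 0.874. In regions with a peak in the libraries of the compared timepoints, 1 was lower and 3 were higher at 48 h (33 regions, 2.16% and 5.23% of all), and 7 were higher at 120 h (45 regions, 20.4% of all). Quantile normalization gave 2 lower and 0 higher at 120 h against 0 h (10.2% and 8.74% of all) and 0 higher against 48 h (0.444% of all). Mean signal gave 2 higher at 120 h against 0 h (20.4% of all), and an intensity trend 4 higher against 48 h (16.4% of all).

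With 1 library left out, genes at 0 and 120 h only ranged from 4 to 7 (4 without 48 h replicate 1), and regions called ranged from 34 to 57 at 18 h (57 without 18 h replicate 1), from 34 to 63 at 48 h (63 without 48 h replicate 1) and from 49 to 94 at 120 h. Regions at 0 h only ranged from 49 to 101 and those at 0 and 120 h only from 12 to 44 (94, 49 and 44 without 120 h replicate 2). For these counts the timepoint that lost a library needed a peak in the remaining one only. The regions called there could therefore not fall. Lower regions at 120 h against 0 h ranged from 2 to 5 and higher ones from 0 to 1, and higher ones against 48 h from 0 to 2.

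Replicate numbers were not used as pairs. The correlations of same-numbered libraries' deviations ranged from -0.224 to 0.249 over the 6 pairs of timepoints. They were 0.184 (0 and 18 h), 0.249 (0 and 120 h) and 0.230 (18 and 120 h). With 48 h they were 0.094 (0 h), -0.144 (18 h) and -0.224 (120 h). Whether libraries of the same number shared a batch was not tested. With the number as a block on the centred heights, 5 regions were lower and 1 higher at 120 h against 0 h, 0 were called at 18 h or 48 h against 0 h, and between 48 h and 120 h 3 instead of 2 were higher.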
